A study of Mus musculus with 6 samples.

Results

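Transcripts of 10 genes through which capillary endothelium handles fatty acids, glycerol and retinol were followed across 3 subsets of thymic endothelial cells (ECs). The genes are *Gpihbp1*, *Lpl*, *Cd36*, *Fabp4*, *Fabp5*, *Rbp7*, *Aqp7*, *Pparg*, *Meox2* and *Tcf15*, and they were taken by symbol from the 24457 genes on chromosomes in the expression tables. Each symbol matched 1 row in every library, and all 10 were among the 11717 genes high enough to be tested, those with at least 1 FPKM (fragments scaled by the length of the transcript and by the mapped fragments of the library) in at least 2 libraries. *Rbp7* and *Aqp7* were chosen by their measured FPKM, which are lowest in Ly6C-Selp+ ECs, so their differences between subsets are given as a description with no test. All of the genes but *Meox2* also stand in the list of differential genes that the study drew from these same libraries, so that their direction is not independent evidence.

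The cells came from thymi of untreated, wildtype, female C57BL/6 mice that the labels give as 4 to 6 weeks old, and no allele or agent separates the groups. A sort for CD31 without CD45 or EpCAM, with a purity of at least 90%, gave the ECs, which surface Ly6C and P-selectin (Selp) divided into type I (Ly6C+Selp-), type II (Ly6C+Selp+) and type III (Ly6C-Selp+), the last of which the study calls thymic portal ECs. Each subset has 2 libraries, replicate 1 and replicate 2, 6 in all. The sources used here do not say how many mice stand behind a library, so p-values measure only the spread between these libraries.

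Capillary ECs pass fatty acids from the blood to the tissue in steps. Lipoprotein lipase (LPL) is made mostly by parenchymal cells, and GPIHBP1 on capillary ECs binds it, carries it to the lumen and anchors it where it frees fatty acids from triglyceride-rich lipoproteins. CD36 takes the fatty acids up, fatty acid-binding proteins carry them through the cell, and the aquaglyceroporin AQP7 lets glycerol across the membrane. The nuclear receptor PPARγ responds to fatty acids and drives many of these genes in adipocytes and ECs, and the pair MEOX2 and TCF15 drives fatty acid uptake genes in capillaries of heart and muscle.

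The fragments behind the FPKM values, estimated from the width of the deposited confidence intervals, summed to between 1452476 and 2423171 per library. *Selp* followed the sort, at 7.87 and 5.20 FPKM in type I ECs and 313 to 657 FPKM in the other libraries, and *Ly6c1* went the other way, from 1010 and 692 FPKM in type I ECs to 99.6 and 59.7 FPKM in type III ECs. The pan-endothelial gene *Pecam1* was between 496 and 867 FPKM in every library. Replicate 1 of the type I and type III ECs stood apart in macrophage markers, whose summed FPKM was 227 against 30.3 in the first subset and 383 against 65.6 in the other. Replicate 1 was also above replicate 2 in all 3 subsets for 7 of the 10 genes (*Aqp7*, *Cd36*, *Fabp4*, *Fabp5*, *Gpihbp1*, *Lpl* and *Pparg*), as it was for 39.3% of all tested genes. After median-ratio scaling this held for 4 of them (*Cd36*, *Fabp4*, *Fabp5* and *Lpl*).

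*Gpihbp1* (15:75427088-75428643 of mm9, plus strand), the anchor of LPL on the capillary lumen, had the steepest decline with a test. It was at 489.6 and 391.9 FPKM in type I ECs, 161 and 107 FPKM in type II ECs and 59.3 and 36.5 FPKM in type III ECs. No library of a subset overlapped with the next. The means were 441 ± 69.1, 134 ± 38.1 and 47.9 ± 16.1 FPKM (SD, n = 2 each), so that type III ECs held 10.9% of the type I level. On the log2(FPKM + 1) scale the difference between these ends was -3.21 ± 0.31 (SE, limma adjusted p = 0.00067), and it stayed past the threshold of 0.05 with each of the 6 libraries left out in turn.

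The lipase itself, *Lpl* (8:71404454-71430831, plus strand), was lower than its anchor in every library. It was at 55.9 and 23.7 FPKM in type I ECs, 27.8 and 12.9 FPKM in type II ECs and 14.3 and 4.44 FPKM in type III ECs. Replicate 1 exceeded replicate 2 in every subset, and neighbouring subsets overlapped. The difference of type III from type I ECs was -2.04 ± 0.57 (log2, limma adjusted p = 0.0992), and it ran from -2.79 without type III replicate 1 to -1.29 without type III replicate 2. With the replicate number as a block in the fit it was past the threshold (limma adjusted p = 0.000844).

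*Cd36* (5:17287508-17394777, minus strand), the fatty acid translocase, was at 515 and 263 FPKM in type I ECs, 350.3 and 193 FPKM in type II ECs and 144 and 91.5 FPKM in type III ECs. Both type III libraries lay below the other 4, while the first 2 subsets overlapped. Relative to type I ECs the mean was 69.9% and 30.3%. The log2 difference between the ends was -1.67 ± 0.40 (limma adjusted p = 0.0556), and with the replicate block the adjusted p was 0.000843.

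*Fabp4* (3:10204343-10208576, minus strand), a fatty acid carrier best known from adipocytes and capillary ECs, ranked 2 by mean FPKM among all genes in type I ECs and 9 in type III ECs. It was at 4787 and 3013 FPKM in type I ECs, 3831 and 2898 FPKM in type II ECs and 1716 and 1292 FPKM in type III ECs. As a share of all summed FPKM it took 1.60% and 1.36%, 1.47% and 1.27%, and 0.570% and 0.475% of a library. Its level thus differed little between the first 2 subsets and was lower in both type III libraries than in any other. *Fabp5* (3:10012585-10016610, plus strand), its neighbour on the chromosome and a carrier of wider expression, ran parallel at a lower level. It was at 266 and 179.9 FPKM, then 208 and 179 FPKM, and then 108 and 88.6 FPKM. Between type III and type I ECs *Fabp4* fell by 1.35 ± 0.31 and *Fabp5* fell by 1.15 ± 0.26 on the log2 scale (limma adjusted p = 0.0463 and 0.0451). Both calls sat close to the threshold, and each was kept in 1 of the 6 fits that left out a library, the one without type I replicate 2. In the other 5 the adjusted p ran from 0.102 to 0.239 for *Fabp4* and from 0.0872 to 0.229 for *Fabp5*.

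*Rbp7* (4:148823811-148829077, minus strand) encodes a cellular retinol-binding protein of the same carrier family and had the widest range of the 10 genes. It was at 133 and 124 FPKM in type I ECs, 32.1 and 12.5 FPKM in type II ECs, and it was listed at 0 in both type III libraries. Those zeros stand against an estimated 163 and 184 fragments in type I ECs and 29 and 18 in type II ECs, and 3 fragments of *Rbp7* would have given about 3.51 and 2.04 FPKM in the type III libraries. At this depth a 0 cannot be told from a low level of that order, and no fold is given against a gene listed at 0. No library held a 0 for a gene that was at 20 FPKM or more in the other 5. Only 3 genes were listed at 0 in both type III libraries while at 20 FPKM or more in both type I libraries, namely *Rbp7*, the small nucleolar RNA *Snord22* and 1 copy of the haemoglobin gene *Hba-a1*.

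*Aqp7* (4:40980107-40995169, minus strand), the glycerol channel, was at 69.4 and 49.7 FPKM in type I ECs and 20.7 and 11.3 FPKM in type II ECs. In type III ECs it was at 1.73 and 0.223 FPKM, which rest on an estimated 9 and 2 fragments. The 3 subsets did not overlap, and the type III mean was 1.64% of the type I mean.

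**Figure D1:**
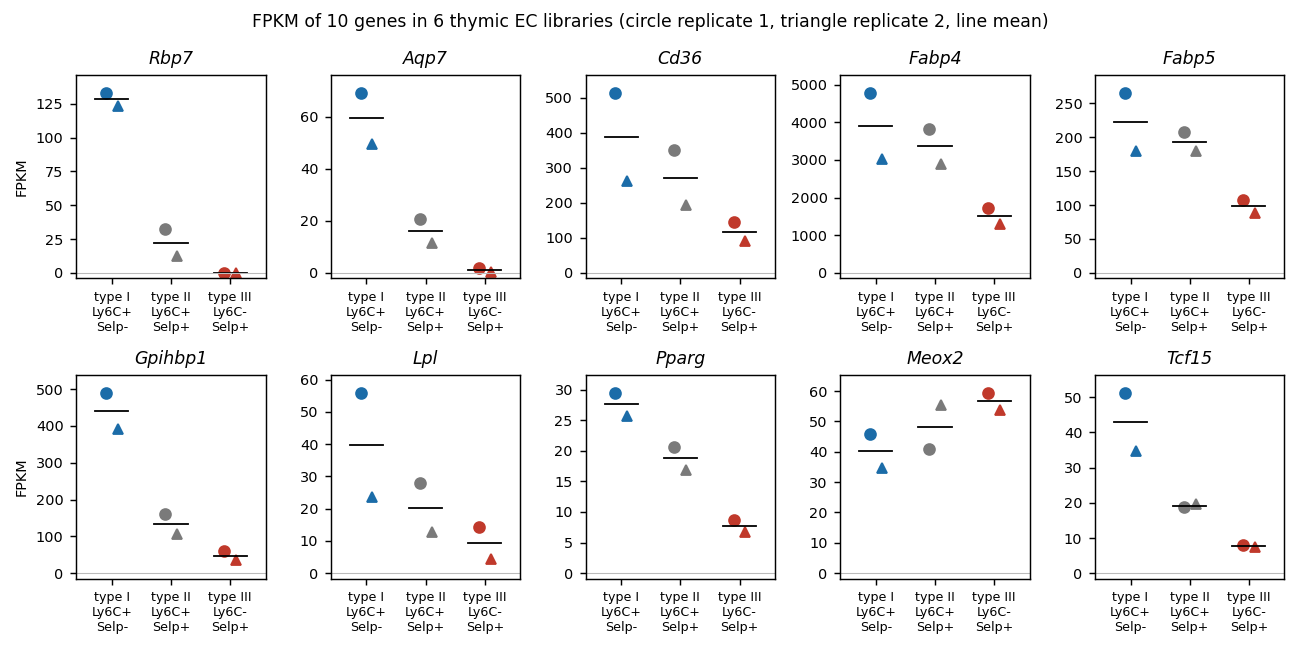
FPKM (linear y axis, a range of its own for each gene) of the 10 genes in the 6 libraries, with the subsets on the x axis, circles for replicate 1, triangles for replicate 2 and a line at the mean of 2. *Gpihbp1*, *Rbp7*, *Aqp7*, *Pparg* and *Tcf15* step down with no overlap, *Fabp4* and *Fabp5* stay near their first level in type II ECs, *Rbp7* lies at 0 in both type III libraries, and *Meox2* alone is higher in type III than in type I ECs.

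Among the factors, *Pparg* (6:115311239-115440419, plus strand) was at 29.5 and 25.8 FPKM in type I ECs, 20.6 and 16.9 FPKM in type II ECs and 8.63 and 6.72 FPKM in type III ECs. The subsets did not overlap, and their means were 27.6 ± 2.62, 18.8 ± 2.64 and 7.67 ± 1.35 FPKM (SD, n = 2). It fell by 1.73 ± 0.27 on the log2 scale between the ends (limma adjusted p = 0.00772), a call that was lost without type III replicate 2 (adjusted p = 0.0691).

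*Tcf15* (2:151969345-151974832, plus strand), a basic helix-loop-helix (bHLH) factor, was at 51.3 and 34.7 FPKM, 18.7 and 19.6 FPKM, and 8.04 and 7.45 FPKM in the same order of subsets. It fell by 2.31 ± 0.28 (log2, limma adjusted p = 0.00204), again with no overlap between subsets. Its homeobox partner *Meox2* (12:37835133-37906115, plus strand) did not follow. *Meox2* was at 46.0 and 34.7 FPKM in type I ECs, 40.8 and 55.3 FPKM in type II ECs and 59.4 and 53.8 FPKM in type III ECs, so that its type III mean was the highest, although type II replicate 2 lay between the 2 type III libraries. The difference of 0.49 ± 0.26 did not pass the test (limma adjusted p = 0.491), and its 95% interval ran from -0.11 to 1.09 on the log2 scale. The lower end of that interval lies above the estimate for *Fabp5*, the smallest decline among the other genes, although no difference between genes was tested.

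Between type III and type I ECs, 5 of the 8 genes that may be tested passed the threshold, all lower, namely *Gpihbp1*, *Tcf15*, *Pparg*, *Fabp5* and *Fabp4*. Of all tested genes 2.05% were called lower in this comparison and 2.09% higher. With the replicate block 7 of the 8 passed, against 3.89% of all genes called lower, and *Meox2* remained the exception (limma adjusted p = 0.249). Median-ratio scaling and quantile normalization, each without the block, also gave 7 of the 8, all lower. Of the 11717 tested genes these called 378 and 381 lower, beside 240 in the main fit. *Gpihbp1* and *Tcf15* kept the call in all 6 fits with a library left out and *Lpl* had it in none. *Cd36* gained it without type I replicate 2 or without either type II library (adjusted p = 0.0455, 0.0392 and 0.0444). The median difference of the 8 genes, without *Rbp7* and *Aqp7*, was -1.70 on the log2 scale, beside 0.08 over all tested genes. In 7 of the 8 both type III libraries lay below both type I libraries, a pattern that 17.1% of all tested genes showed, and *Meox2* showed the opposite pattern with 20.7% of them. These are bulk values of sorted cells, in which fewer cells of a kind and less RNA per cell cannot be told apart.

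The first step, between type I and type II ECs, shares the type I libraries with the comparison that chose *Rbp7* and *Aqp7*. That choice can favour high type I values, so both genes are given here as a description with no test. *Rbp7* differed by -2.62 and *Aqp7* by -1.87 on the log2 scale. Of the other 8 genes none passed, while 0.0683% of all genes were called lower. *Gpihbp1* differed by -1.73 ± 0.31 (limma adjusted p = 0.0640). It passed with the replicate block (limma adjusted p = 0.00398), when 0.717% of all genes were called lower. *Tcf15* differed by -1.10 ± 0.28 (limma adjusted p = 0.209).

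*Tcf15* and the remaining 6 genes were not called at this step in any fit that was run. *Pparg* differed by -0.54 ± 0.27, *Cd36* by -0.50 ± 0.40, *Lpl* by -0.91 ± 0.57 and *Meox2* by 0.24 ± 0.26 on the log2 scale. *Fabp4* and *Fabp5* differed least, by -0.19 with a 95% interval from -0.89 to 0.51 and by -0.18 with an interval from -0.77 to 0.42. The lower ends of these intervals lie above the estimates for *Rbp7*, *Aqp7* and *Gpihbp1*, but those have errors of their own and no difference between genes was tested. The sign of the *Fabp4* and *Fabp5* differences was not settled. Leaving out type I replicate 1 turned them to 0.15 and 0.10, and quantile normalization turned that of *Fabp4* to 0.20. Of the 8 genes other than *Rbp7* and *Aqp7*, only *Gpihbp1*, *Pparg* and *Tcf15* had both type II libraries below both type I libraries. That held for 20.6% of all tested genes. *Rbp7* and *Aqp7*, chosen by their measured values, had this pattern too.

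The second step, between type II and type III ECs, gave log2 estimates from -1.48 to -0.97 for the genes with a test other than *Meox2*. Their SE ran from 0.26 to 0.57, and no difference between genes was tested. *Gpihbp1* differed by -1.48, *Tcf15* by -1.21, *Pparg* by -1.19, *Cd36* by -1.17, *Fabp4* by -1.16, *Lpl* by -1.13 and *Fabp5* by -0.97, whereas *Meox2* differed by 0.25. None of these 8 passed the threshold in limma with or without its trend, although 6 had an unadjusted p under 0.05 in both, and 0.128% of all genes were called lower. The deposited FPKM are not scaled between libraries, and the median over all genes at this step was 0.14. Scaling by median ratios moved that median by -0.12 and quantile normalization by -0.14, and under each of them 5 of the 8 passed, lower. Of the 11717 tested genes these called 62 and 68 lower, beside 15 in the main fit. With the replicate block 7 of the 8 passed, lower, beside 0.896% of all genes, and the adjusted p ran from 0.00981 for *Gpihbp1* to 0.0389 for *Tcf15*, with *Meox2* at 0.611. *Rbp7* went from 32.1 and 12.5 FPKM to listed at 0, and *Aqp7* to 6.09% of its type II mean. In 6 of the other 8 genes both type III libraries lay below both type II libraries, as did 13.3% of all tested genes.

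**Figure D2:**
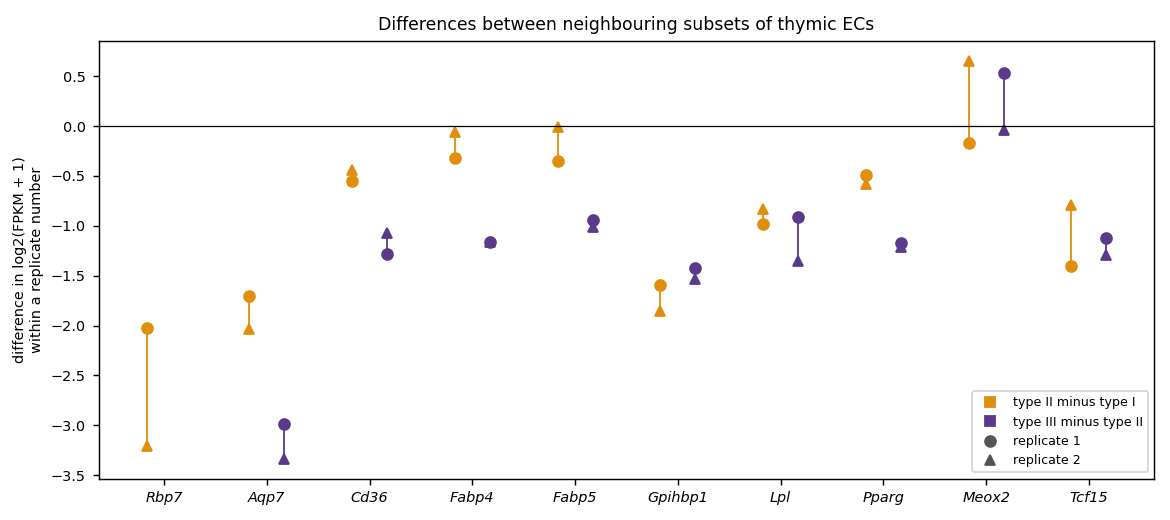
Differences in log2(FPKM + 1) between libraries of the same replicate number (y axis) for each gene (x axis), orange for type II minus type I and purple for type III minus type II, with a line joining replicate 1 (circle) and replicate 2 (triangle). *Fabp4* and *Fabp5* lie near 0 at the first step and near -1 at the other, *Gpihbp1*, *Lpl* and *Tcf15* have steps of like size, and *Rbp7* has no purple points because it is listed at 0 in type III ECs.

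The place of type II ECs between the ends therefore varied from gene to gene as a description. With type I ECs set to 0 and type III ECs to 1 on the log2(FPKM + 1) scale, type II ECs were at 0.14 for *Fabp4*, 0.15 for *Fabp5*, 0.30 for *Cd36* and 0.31 for *Pparg*. They were at 0.44 for *Lpl*, 0.48 for *Tcf15* and 0.54 for *Gpihbp1*. On linear FPKM the same places were 0.22, 0.23, 0.43, 0.44, 0.64, 0.68 and 0.78, in the same order. *Rbp7* and *Aqp7* were at 0.37 and 0.37 on the log2 scale and at 0.83 and 0.74 on linear FPKM. Their log2 places depend on the pseudocount and were 0.26 and 0.31 with one of 0.1. Whether a gene left the midpoint of the ends was tested for the genes other than *Rbp7* and *Aqp7*, and none of these 8 passed in limma or had an unadjusted p under 0.05, with or without its trend, while 0.0427% of all genes were called. With the replicate block the count stayed at 0, with 3 at an unadjusted p under 0.05 and 0.128% of all genes called. A complete order of all libraries, with every type I library above every type II library and these above every type III library, was found for 3 of these 8 genes, *Gpihbp1*, *Pparg* and *Tcf15*, and for 3.63% of all tested genes. *Rbp7* and *Aqp7*, chosen by their type III values, had that order too.

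**Figure D3:**
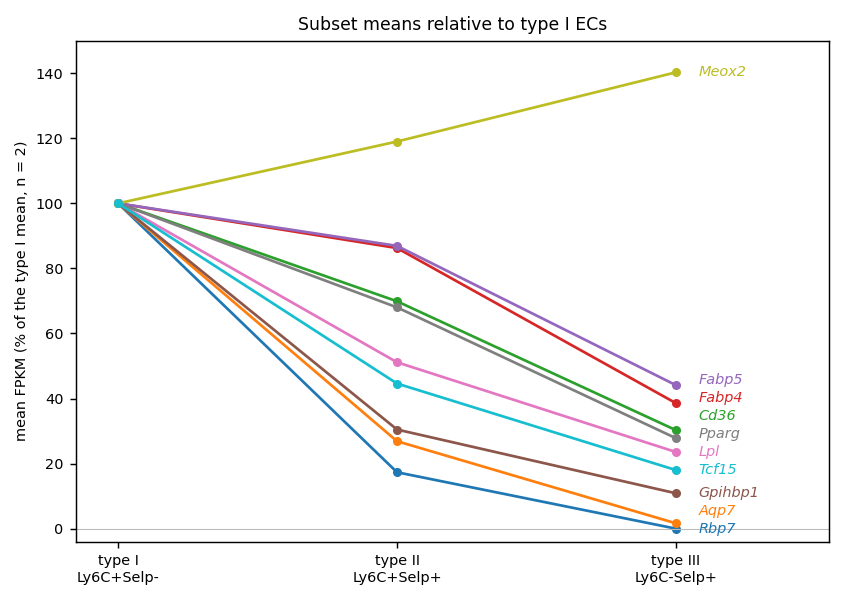
Mean FPKM of each subset (n = 2 libraries) as a percentage of the type I mean (linear y axis), 1 line per gene. In type II ECs the genes spread from 17.3% (*Rbp7*) to 119% (*Meox2*), and in type III ECs the 9 lower genes lie between 0% (*Rbp7*) and 44.1% (*Fabp5*) while *Meox2* is at 140.3%.

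Ratios of FPKM within a library do not depend on a single scaling factor per library, whereas quantile normalization can change them. The pairs were chosen after the values had been seen, and with 2 libraries against 2 an exact two-sided permutation test cannot go below 0.333, so that these are descriptions. *Meox2* stood to *Tcf15* at 0.897 and 1.00 in type I ECs, 2.18 and 2.81 in type II ECs and 7.39 and 7.23 in type III ECs. The partners thus went from near equal FPKM to a wide excess of *Meox2*. *Gpihbp1* stood to *Fabp4* at 0.102 and 0.130, then 0.0421 and 0.0370, and then 0.0346 and 0.0282, which places most of the change between the first 2 subsets. *Fabp4* stood to *Fabp5* between 14.6 and 18.4 in all 6 libraries, the 2 type III libraries being the lowest. *Gpihbp1* stood to *Lpl* at 8.75 and 16.5, 5.80 and 8.31, and 4.14 and 8.23, and here the replicates of a subset differed as much as the subsets did.

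**Figure D4:**
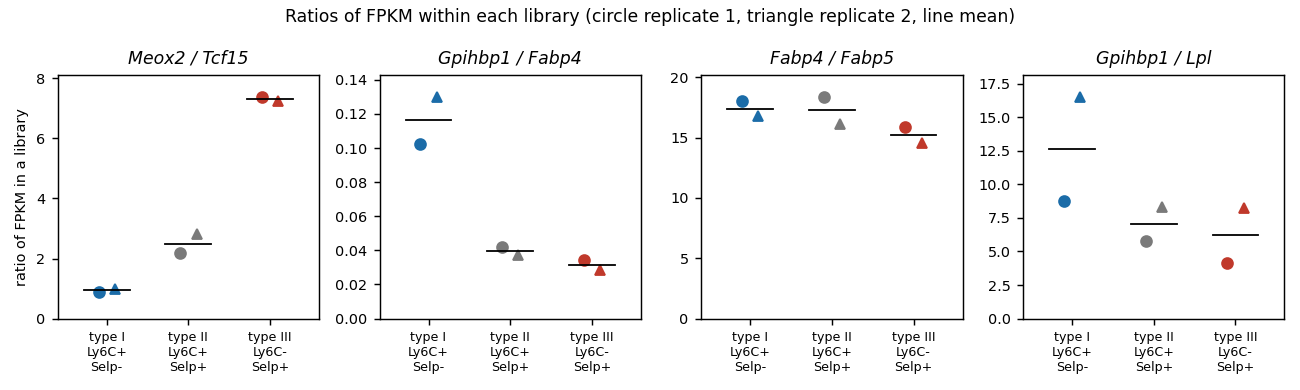
Ratio of FPKM of 2 genes within each library (linear y axes from 0), by subset, circles for replicate 1, triangles for replicate 2 and a line at the mean of 2. *Meox2* over *Tcf15* steps up without overlap, *Gpihbp1* over *Fabp4* drops at type II ECs, *Fabp4* over *Fabp5* stays between 14.6 and 18.4, and *Gpihbp1* over *Lpl* overlaps between subsets.

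Over the 6 libraries the log2 values of *Fabp4* and *Fabp5* correlated at 0.997, those of *Aqp7* and *Pparg* at 0.997, and those of *Meox2* with the other genes at -0.80 to -0.53. These correlations are across libraries that differ in subset and in depth, and they are given as a description. By the same measure, the genes outside the 10 whose profile was most like their mean profile, among 4868 genes with a mean of at least 10 FPKM in a subset, were *Xdh* (r = 0.993), which encodes xanthine dehydrogenase, *Cav1* (0.992), the coat protein of caveolae, *Map4k3* (0.988), *Ptgfrn* (0.986) and *Ly6c1* (0.985). *Xdh* was at 55.9 and 38.3 FPKM, 30.2 and 25.4 FPKM, and 16.2 and 12.1 FPKM in the 3 subsets. The likeness to *Ly6c1* follows the sort, since Ly6C defined the gates.

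Several of the 10 genes are also used by adipocytes, macrophages and pericytes, and the markers of those cells were read in the same libraries. The 6 adipocyte markers together summed to 3.87 to 5.002 FPKM in type I ECs, 0.592 to 3.06 FPKM in type II ECs and 0 to 0.251 FPKM in type III ECs, and the defining genes *Adipoq* and *Plin1* were at most 0.929 and 0.462 FPKM, in the libraries where *Fabp4* was at 4787 and 3013 FPKM. They moved in the same direction as the 10 genes, and their part in the result was not tested. None of the 5 macrophage markers that could be tested was called in limma or had an unadjusted p under 0.05 between type III and type I ECs, and *Lyz2* was at 177 and 18.5 FPKM in type I ECs, 55.7 and 22.4 FPKM in type II ECs and 296 and 46.6 FPKM in type III ECs. Its excess in replicate 1 of each subset moved with that of *Lpl* and *Cd36*, which macrophages also express, and its part in their replicate spread was not tested.

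Pericyte and smooth muscle markers summed to 176 to 462 FPKM in type I ECs, 268 to 407 FPKM in type II ECs and 92.8 to 137 FPKM in type III ECs. Of the 6, 1 was called, *Pdgfrb*, which was lower in type III than in type I ECs by 1.85 on the log2 scale (limma adjusted p = 0.0132), and the highest, *Rgs5*, went from 346 and 114 FPKM to 48.6 and 45.4 FPKM (adjusted p = 0.0575). The smooth muscle genes *Acta2* and *Myh11*, named after their values had been seen, went the other way without a call (log2 differences 1.16 and 0.73). The haemoglobin gene *Hba-a1* was at 55.6 and 43.8 FPKM, 7.19 and 7.57 FPKM, and 0 and 2.84 FPKM, though its near-identical copies share reads, whereas *Hbb-b1*, also named after its values had been seen, was at 0.0642 and 71.1 FPKM in type I ECs, 36.3 and 12.01 FPKM in type II ECs and 0 and 7.82 FPKM in type III ECs. The part of these cells in the result was not tested. Leukocyte markers summed to 14.8 to 54.2, 25.8 to 35.3 and 39.1 to 95.3 FPKM, thymic epithelial markers to 16.96 to 45.4, 17.2 to 20.9 and 11.0 to 41.8 FPKM, fibroblast markers to 106 to 165, 169.8 to 246 and 100.03 to 111 FPKM, and lymphatic markers to 18.7 to 23.9, 9.85 to 12.4 and 13.3 to 30.1 FPKM in the 3 subsets, with no called gene in these 4 lists in limma and 0, 1, 0 and 3 genes at an unadjusted p under 0.05 between type III and type I ECs. Between type III and type II ECs, 4 of the 5 fibroblast markers had an unadjusted p under 0.05 and none was called.

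Capillary and venous markers framed the result. Of 12 capillary genes 7 were lower in type III than in type I ECs and none higher, among them *Btnl9* (log2 difference -5.12), *Rgcc* (-4.38) and *Cxcl12* (-3.30). Of 11 venous genes 7 were higher and none lower, among them the chemokine receptor *Ackr1* (6.51), *Vwf* (5.60) and *Sele* (4.58). Of all tested genes 2.05% were called lower and 2.09% higher, and the lists were chosen with earlier results of these data known. Not every marker followed. The capillary genes *Car4* (-0.07) and *Tmem100* (0.51) and the venous gene *Ephb4* (-0.14), named after their values had been seen, were not called. The gates fixed the direction of *Ly6c1* and *Selp*, and without them the counts were 6 of 11 capillary and 6 of 10 venous genes. The general endothelial list held 1 lower gene, *Kdr*, and 1 higher gene, *Eng*, among 8.

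The rest of the fatty acid route was read from lists of related genes, for the same comparison of type III with type I ECs. In fatty acid uptake and activation, 11 of 17 genes could be tested and 1 was lower. This was *Cav1*, also the highest of the list, with means of 436 ± 132, 299 ± 72.5 and 156 ± 27.5 FPKM (SD, n = 2) and a log2 difference of -1.45 (limma adjusted p = 0.0267). The call was lost without type I replicate 1 or without either type III library (adjusted p = 0.0981, 0.0910 and 0.171). The fatty acid transport proteins and acyl-CoA synthetases of the list were not called, and *Acsl5*, for one, was at 26.2, 21.8 and 27.9 FPKM on average. The list's median difference was -0.06, beside 0.08 over all genes.

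The list of lipid droplet and intracellular lipolysis genes, which also holds droplet coats and enzymes of triglyceride synthesis, gave 2 lower genes of 13 tested and no higher one. *Mgll*, the monoglyceride lipase, had means of 139 ± 16.6, 76.7 ± 2.30 and 35.8 ± 2.13 FPKM and fell by 1.92 ± 0.23 on the log2 scale (limma adjusted p = 0.00188). *Lipe*, the hormone-sensitive lipase, had means of 39.7 ± 2.24, 24.1 ± 2.29 and 14.6 ± 0.960 FPKM and fell by 1.38 ± 0.24 (limma adjusted p = 0.0134). The *Lipe* call was lost without either type I library and without either type III library, at adjusted p up to 0.115. The lipid droplet coat gene *Plin2* had means of 31.4, 21.0 and 13.1 FPKM (adjusted p = 0.0541), whereas *Pnpla2*, the adipose triglyceride lipase, had 30.6, 27.3 and 27.3 FPKM (adjusted p = 0.872). The median of the list was -0.16.

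In lipoprotein lipolysis and lipoprotein receptors, 2 of 15 tested genes were higher and none lower. *Vldlr*, a receptor for triglyceride-rich lipoproteins, went from a mean of 0.186 ± 0.129 FPKM in type I ECs over 1.31 ± 0.229 FPKM to 7.27 ± 0.907 FPKM, and rose by 2.80 ± 0.35 on the log2 scale (limma adjusted p = 0.00254). *Apoe*, the highest gene of the list, had means of 571 ± 371, 839 ± 109 and 2270 ± 180 FPKM and rose by 2.16 ± 0.41 (limma adjusted p = 0.0189), a call lost without either type III library (adjusted p = 0.119 and 0.0854). Macrophages also make *Apoe* in quantity, and their part in its level was not tested. The HDL receptor *Scarb1* was at 520.1, 447 and 366 FPKM on average (adjusted p = 0.399), and *Angptl4*, a secreted inhibitor of LPL, at 9.37, 5.99 and 2.48 FPKM (adjusted p = 0.112). *Vldlr* and *Apoe* thus rose in the comparison in which *Gpihbp1* fell.

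In retinoid handling none of 8 tested genes was called in limma, 3 had an unadjusted p under 0.05, and the median was -0.36, the highest gene by the mean over all 6 libraries being the receptor *Rara* at 24.6, 20.6 and 21.3 FPKM on average.

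Among glycerol and water channels none of 5 tested genes was called in limma or had an unadjusted p under 0.05. The water channel *Aqp1* was the highest, with means of 1271 ± 317, 1500.3 ± 84.9 and 1755 ± 218 FPKM (log2 difference 0.48, limma adjusted p = 0.496), and the other glycerol channels *Aqp3* and *Aqp9* had means of at most 0.723 and 0.130 FPKM. Of the 3, *Aqp7* had the highest level in type I ECs.

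Of the factors around PPARγ, none of 13 tested genes was called in limma, 1 had an unadjusted p under 0.05, and the median was 0.04. *Rxra*, whose product pairs with PPARγ, had means of 19.7, 17.9 and 14.9 FPKM (limma adjusted p = 0.631), *Ppard* had 17.3, 17.6 and 18.7 FPKM (adjusted p = 0.955), *Ppara* was listed at 0 in all 3 subsets, and the highest gene, *Cebpb*, had 67.8, 47.2 and 53.2 FPKM. Among relatives of MEOX2 and TCF15, none of 8 was called and 1 had an unadjusted p under 0.05. *Meox1*, named after its values had been seen, had means of 40.8 ± 4.27, 57.6 ± 6.16 and 78.2 ± 6.68 FPKM (log2 difference 0.92, limma adjusted p = 0.0688), and the highest gene, *Tcf4*, whose product is a general bHLH partner, had 78.3, 71.1 and 70.5 FPKM. Mitochondrial fatty acid oxidation, where the acids are burnt, had no called gene among 20, 2 at an unadjusted p under 0.05 and a median of 0.10, near that of all genes, and its highest gene *Etfb* had 40.2, 35.2 and 39.3 FPKM.

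With the replicate number as a block, 971 of the 11717 tested genes passed between type III and type I ECs, 515 higher and 456 lower (3.89%). Without the block 485 had passed. More genes of these lists passed too, and those without an earlier mention were named after their values had been seen. *Plin2* (limma adjusted p = 0.00871) made 3 lower genes in the list of lipid droplets and lipolysis, and *Cav2*, which encodes another caveolin (-0.99 on the log2 scale, limma adjusted p = 0.00987), made 2 in uptake and activation. In lipoprotein lipolysis and receptors 4 genes passed, *Lipg*, the endothelial lipase (1.52, limma adjusted p = 0.0261), joining the 2 higher ones and *Angptl4* (-1.58, limma adjusted p = 0.00776) being lower. Lists with no call before had *Rdh10*, a retinol dehydrogenase (1.53, limma adjusted p = 0.00562), and the retinoic acid receptor *Rarg* (-1.09, limma adjusted p = 0.0273) in retinoid handling, the corepressor *Nrip1* (0.95, limma adjusted p = 0.0418) around PPARγ, and *Meox1* (limma adjusted p = 0.0105). *Meox1* was thus called higher in type III ECs in that fit, where *Meox2* was not called. With *Cd300lg* and *Sgk1* added, 9 capillary markers were lower, and with *Nr2f2* and *Il1r1* added, 9 venous markers were higher. These counts include the sort genes *Ly6c1* and *Selp*. Among markers of other cells the block added *Rgs5* (limma adjusted p = 0.00509), *Krt5* of thymic epithelium (limma adjusted p = 0.0498) and the lymphatic genes *Prox1* (limma adjusted p = 0.0288) and *Flt4* (limma adjusted p = 0.0192), and *Prox1* alone of these 4 was higher.

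**Figure D5:**
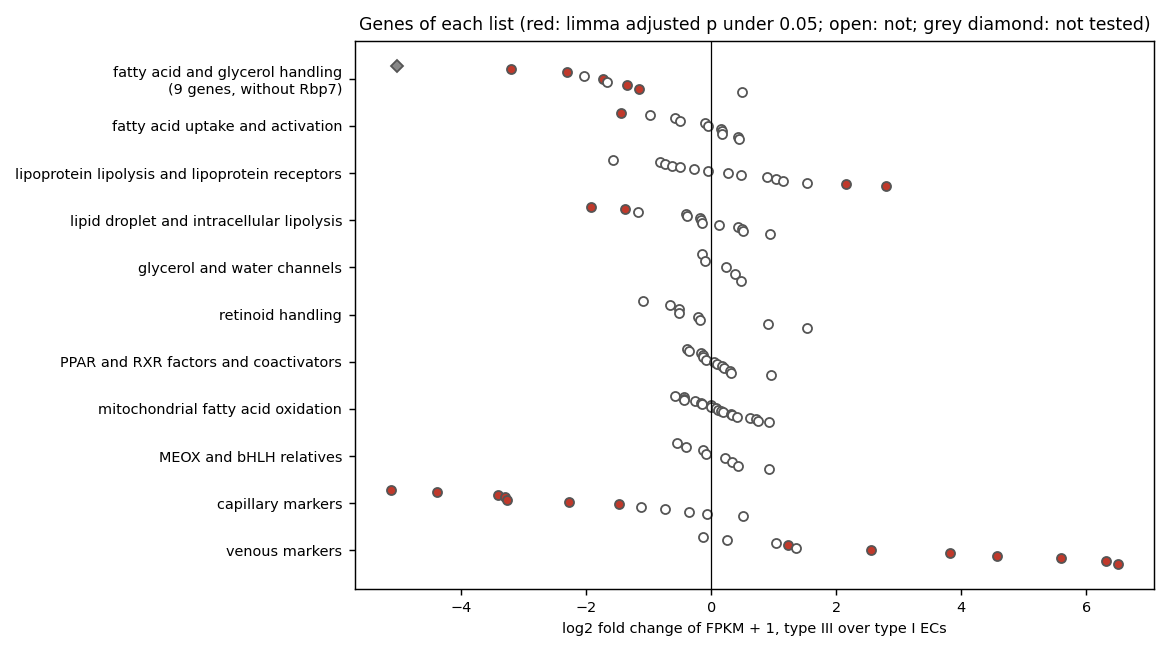
Log2 fold change of FPKM + 1 in type III over type I ECs (x axis) for each tested gene of each list (y axis), red where the limma adjusted p is under 0.05 and open where it is not, with *Aqp7* as a grey diamond without a test and *Rbp7* left out because it is listed at 0. The genes of fatty acid and glycerol handling and the capillary markers reach far to the left and the venous markers to the right, while fatty acid oxidation and the PPAR and RXR factors gather around 0 with no red point.

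Promoter sequence was read for the members for which the RefSeq table (GRCm38.p6, the bases before the annotated start of transcription) held an entry, 5 of 10, with 8 windows of 250 bases. The windows were searched on both strands for the element that PPARγ binds with its partner RXR, 2 copies of AGGTCA in the same direction with 1 free base between them (DR1, up to 2 mismatches in 12 letters), for a single AGGTCA, for the E-box CATCTG and for the homeobox core TAATTA. *Aqp7*, *Cd36* and *Rbp7* are shown because the first 2 hold the DR1 letters and the other, the gene with the widest range, holds none of the 4 motifs. Capitals mark the matches, and a DR1 match can contain an AGGTCA match. The windows are chr4:41048137-41048386 for *Aqp7*, chr5:17835897-17836146 for *Cd36* and chr4:149454969-149455218 for *Rbp7*, all on the minus strand and printed 5′ to 3′ toward the gene.
Aqp7: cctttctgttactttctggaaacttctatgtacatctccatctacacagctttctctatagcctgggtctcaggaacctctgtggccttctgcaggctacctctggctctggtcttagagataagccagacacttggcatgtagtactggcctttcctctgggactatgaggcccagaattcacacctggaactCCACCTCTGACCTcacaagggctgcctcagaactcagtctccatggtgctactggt
Cd36: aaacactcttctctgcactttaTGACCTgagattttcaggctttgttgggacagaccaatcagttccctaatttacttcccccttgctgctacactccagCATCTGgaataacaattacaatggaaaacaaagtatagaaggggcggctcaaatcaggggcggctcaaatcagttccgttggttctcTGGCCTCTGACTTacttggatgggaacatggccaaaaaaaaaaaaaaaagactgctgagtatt
Rbp7: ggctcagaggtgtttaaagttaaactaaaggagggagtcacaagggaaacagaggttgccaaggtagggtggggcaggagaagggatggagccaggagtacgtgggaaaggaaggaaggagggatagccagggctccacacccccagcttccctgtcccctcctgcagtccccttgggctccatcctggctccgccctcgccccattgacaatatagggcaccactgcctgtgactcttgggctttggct
In *Aqp7* the DR1 letters lie 56 to 44 bases before the start on the reverse strand, with an exact TGACCT, the reverse of AGGTCA, at the end nearest the gene. In *Cd36* they lie 63 to 51 bases before the start on the reverse strand, with a TGACCT further upstream and 1 CATCTG between them. A second *Aqp7* window, from a start further downstream that overlaps the first, held the same letters and 1 more DR1 match. Of 3 *Pparg* windows, 2 held an AGGTCA and none the DR1, and *Meox2* held no motif. Among all 32851 windows of this length, 3.24% held the DR1 letters, 14.0% an AGGTCA, 14.4% a CATCTG and 4.84% a TAATTA. A match describes letters in a window and is not a bound site, and no match says only that the letters are not in it.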

How the data were processed

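RNA of sorted thymic ECs was sequenced as paired ends in 6 libraries. Per the submitters' processing notes and the study's methods, trimmed reads were aligned by the authors to mm9 with TopHat2 2.0.10, and Cufflinks 2.1.1 gave the deposited FPKM of each library with their 95% confidence bounds. The annotation is not given in the sources used here. Differential genes were called by the authors with Cuffdiff, which needs reads. Here log2(FPKM + 1) of genes with at least 1 FPKM in at least 2 libraries was compared by limma 3.58.1 (R 4.3.3, lmFit, eBayes with a trend, all 6 libraries in 1 fit, Benjamini-Hochberg adjustment over all tested genes, threshold 0.05), after the steps had been tested on simulated data. A fold change on this scale understates that of low genes. Fragments were read back from the bounds as if these held counting error alone. Of the values up to 100 fragments, 41.8% lay within 0.05 of a whole number, so they are estimates. Spike-in and reporter rows were not used.

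The members and gene lists were chosen with earlier results of these data known. Named are the 10 members, the called genes of each list (at most 6, by size of the fold change) with its highest gene, the 5 genes most like the members' mean profile, the sort genes and, for other cell types, the highest marker. From the capillary and venous lists fewer are named. One further list of related carriers is not reported here.

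Libraries of the same replicate number deviated together from their subset means (correlation over genes 0.199, 0.306 and 0.180 for the 3 pairs of subsets). The main fit left this pairing out, and so did every alternative but the block. The fit with the number as a block treats it as a pairing and is given where it changes a call. The labels do not say what the number stands for. Alternatives were a pseudocount of 0.1, no filter or a filter at 5 FPKM, 2 scalings, the block, no trend, only the compared libraries and each library left out. Strands came from GENCODE (same assembly) and promoters from RefSeq (GRCm38.p6), a build whose coordinates are not those of the files.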

Additional observations from a re-analysis of the deposited data

How the results depend on the processing

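Each result was recomputed under the alternatives, and the direction of the difference between type III and type I ECs was kept for each of the 10 genes in all of them. Median-ratio scaling gave 698 genes in that comparison and quantile normalization 694, each with 7 of 8 members past the threshold, lower. The filter at 5 FPKM gave 495 genes and 6 members, and only the compared libraries gave 405 genes and 4 members. For that comparison, where 485 genes and 5 of 8 members passed, no filter on low values gave 102 genes and 0 members, a pseudocount of 0.1 and a fit without the trend gave 3 members each, the replicate block gave 971 genes, and leaving out 1 library gave 209 to 404 genes and 2 to 6 members. From type I to type II ECs, 46 genes (38 higher, 8 lower) passed in the main fit. None of the 8 members other than *Rbp7* and *Aqp7* was among them. *Rbp7* and *Aqp7* are not counted at this step, because their choice can favour high type I values. No filter gave 10 genes, median-ratio scaling 97 (68 higher, 29 lower), quantile normalization 103 (73 higher, 30 lower) and the replicate block 183. No trend gave 15, only the compared libraries 29, and a left-out library 12 to 33. Of the 8 members other than *Rbp7* and *Aqp7*, only *Gpihbp1* passed at this step, in 4 of the alternatives, the replicate block among them. From type II to type III ECs, where 26 genes (11 higher, 15 lower) and 0 of 8 members passed, no filter gave 2 genes, median-ratio scaling 85 (23 higher, 62 lower), quantile normalization 90 (22 higher, 68 lower), the replicate block 229 (124 higher, 105 lower), no trend 10, only the compared libraries 7, and a left-out library 2 to 14. Members past the threshold were 5 with either scaling, 7 with the replicate block and 0 in the other alternatives. Against the midpoint, where 5 genes and no member passed, no filter gave 3 genes, the replicate block 15, no trend 1 and a left-out library 1 to 4. With median-ratio scaling *Fabp5* and *Lpl* also lay lower in both type II libraries than in both type I libraries. The share of all tested genes with such a pattern after scaling is not given here, and no count of members is read from it. Other calls of the members were not changed by the pairing. The cause of these changes was not tested.

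Between the first 2 subsets *Fabp4* turned to 0.20 with quantile normalization. Without 1 library each it ran from -0.52 to 0.15 and *Fabp5* from -0.46 to 0.10. Against the midpoint *Meox2* turned to 0.10 with median-ratio scaling and 0.13 with quantile normalization. Without 1 library each, differences from the midpoint ran from -0.22 to 0.21 for *Meox2*, -0.41 to 0.64 for *Lpl*, -0.083 to 0.19 for *Tcf15*, -0.090 to 0.77 for *Cd36* and -0.42 to 0.17 for *Gpihbp1*. A left-out library leaves its subset with 1 sample, which is assumed to vary like the others. Depth limits *Rbp7* and *Aqp7* in type III ECs, where at most 9 fragments were estimated.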
